A study of Mus musculus with 9 samples.

Results

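The genes described here encode the TGF-β, activin and BMP signaling pathways: 47 genes, chosen by name from the gene symbols and comprising ligands, receptors, extracellular antagonists, latent TGF-β binding proteins, Smad proteins with their corepressors, and the Id genes. That choice was made with earlier results of these data known, so shares of called rows among these genes are not independent evidence. All 47 were found among the 23332 gene rows of the series, in 48 rows, since Fst is listed in 2 rows. The cells were FVB MOE cells, a monoclonal line of secretory murine oviductal epithelial cells from the FVB mouse background, so every sample represents 1 clone in culture. Before RNA was taken, all 9 samples had 48 h of hormone starvation in charcoal-stripped, phenol red free medium and then 24 h of treatment, in 3 groups of 3 samples: 0.1% DMSO as solvent control, 1 nM 17β-estradiol (E2), or 100 nM 4-hydroxytamoxifen (4OHT), the active tamoxifen metabolite that binds the estrogen receptor and can oppose or mimic estrogen by tissue. Nothing in the labels says whether the replicates were separate cultures, so the p-values measure only the spread between these samples, which may be technical.

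Ligands of this superfamily bind pairs of type I and type II serine/threonine kinase receptors, which phosphorylate receptor Smads. TGF-β and activin signals pass mainly through Smad2 and Smad3, and BMP signals through Smad1, Smad5 and Smad9. Both branches use Smad4 as common partner, and the Id genes are classical targets of the BMP branch. TGF-β is secreted in a latent complex with the LTBP proteins, and antagonists such as follistatin and gremlin hold activins and BMPs away from their receptors. In epithelia the pathway is best known for restraining proliferation and for epithelial to mesenchymal transition.

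RNA was measured as FPKM, read fragments corrected for transcript length and library size, so levels of different genes may be compared per length. Per sample, total FPKM lay between 522517 and 588640, 11037 to 11175 rows reached 1 FPKM, and the read depth behind each value is unknown from these values. No 2 samples held identical values, and Pearson's r between samples lay between 0.975 and 0.997. The filter, 1 FPKM or more in 3 or more samples, left 11339 rows for limma on log2(FPKM + 1), a scale that understates changes of low genes. A row was called at a Benjamini-Hochberg adjusted p under 0.05 over all tested rows.

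The marker genes placed the cells as secretory epithelium in part. Pax8, the Müllerian transcription factor, lay at 105 to 149.6 FPKM and Krt19, the lowest of the keratins Krt7, Krt8, Krt18 and Krt19, at 112 to 243 FPKM, but Epcam, Cdh1 and Cldn3 stayed under 1 FPKM in all 9 samples. The other oviduct secretory markers were Msln, at 99.1 to 188 FPKM, and Ovgp1, at only 1.44 to 2.61 FPKM. Against DMSO and only with the block, E2 raised Pax8 and lowered Msln (limma adjusted p 0.0432 and 0.0120), and Ovgp1 was not called. Summed FPKM of the oviduct secretory list was 262 to 297 with DMSO, 250 to 284 with E2 and 269 to 294 with 4OHT. Foxj1, the transcription factor of ciliated cells, was present at 8.95 to 15.9 FPKM with Rsph1 at 2.98 to 3.86 and Ccdc39 at 1.005 to 1.71 FPKM, so that 3 ciliated markers were over and 2, Dnaic1 and Tekt1, under 1 FPKM in all 9 samples. Of the other cell types, Pdgfra, Pdgfrb, Col3a1, Pecam1, Cdh5 and Ptprc reached at most 0.111 FPKM, and Tcf21 and Cd3e were listed at 0 throughout. Under 1 FPKM in all 9 samples were 5 of 6 stromal or mesothelial, 3 of 4 endothelial and 2 of 4 leukocyte markers. Summed FPKM of the epithelial list was 1306 to 1449 with DMSO, 2171 to 2439 with E2 and 1330.3 to 1566 with 4OHT. Krt7 was called higher with E2 than with DMSO without the block (log2 1.45, limma adjusted p 0.0476), and Krt8, Krt18 and Krt19 with the block (limma adjusted p 0.00204, 0.00134 and 0.00295). The stromal or mesothelial list was carried by Upk3b, a gene the study listed as lower with E2 from these samples. Summed FPKM of that list was 2.78 to 3.56 with DMSO, 1.39 to 2.00 with E2 and 3.10 to 3.60 with 4OHT. That of the endothelial list, carried by Kdr, was 0.638 to 0.837, 1.18 to 1.42 and 0.722 to 0.870, and that of the leukocyte list, carried by Cd68 and Csf1r, 7.62 to 9.91, 7.05 to 9.68 and 6.25 to 8.68. Summed FPKM of the ciliated list, carried by Foxj1, was 18.1 to 20.6 with DMSO, 13.8 to 17.7 with E2 and 18.4 to 20.5 with 4OHT. The part of these genes in the results below was not tested. In bulk RNA of this kind, fewer cells of a type and less RNA per cell cannot be told apart.

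Most of the pathway was expressed. Of the 47 genes, 36 passed the filter, in 37 rows: 7 of 12 ligands, 9 of 12 receptors, 3 of 5 antagonists, 3 of 4 LTBP genes, all 6 receptor and common Smads, all 4 inhibitory Smads and corepressors, and all 4 Id genes. Among the 11 genes below the filter, the inhibin subunit gene Inha and the pseudoreceptor gene Bambi were listed at 0 in all 9 samples. The activin subunit gene Inhbb and Bmp7 were listed at 0 in 8 samples each and did not exceed 0.0112 and 0.0198 FPKM. Bmp2 ranged over 0.0108 to 0.0760 FPKM, and the BMP antagonist genes Nog and Chrd over 0.0380 to 0.344 and 0.0680 to 0.176 FPKM. Amh, the anti-Müllerian hormone gene, ranged over 0.456 to 1.02 FPKM and its receptor gene Amhr2 over 0.0466 to 0.141 FPKM. The endothelial co-receptor gene Eng ranged over 0.414 to 0.650 FPKM and Ltbp2 over 0.375 to 0.879 FPKM.

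**Figure D1:**
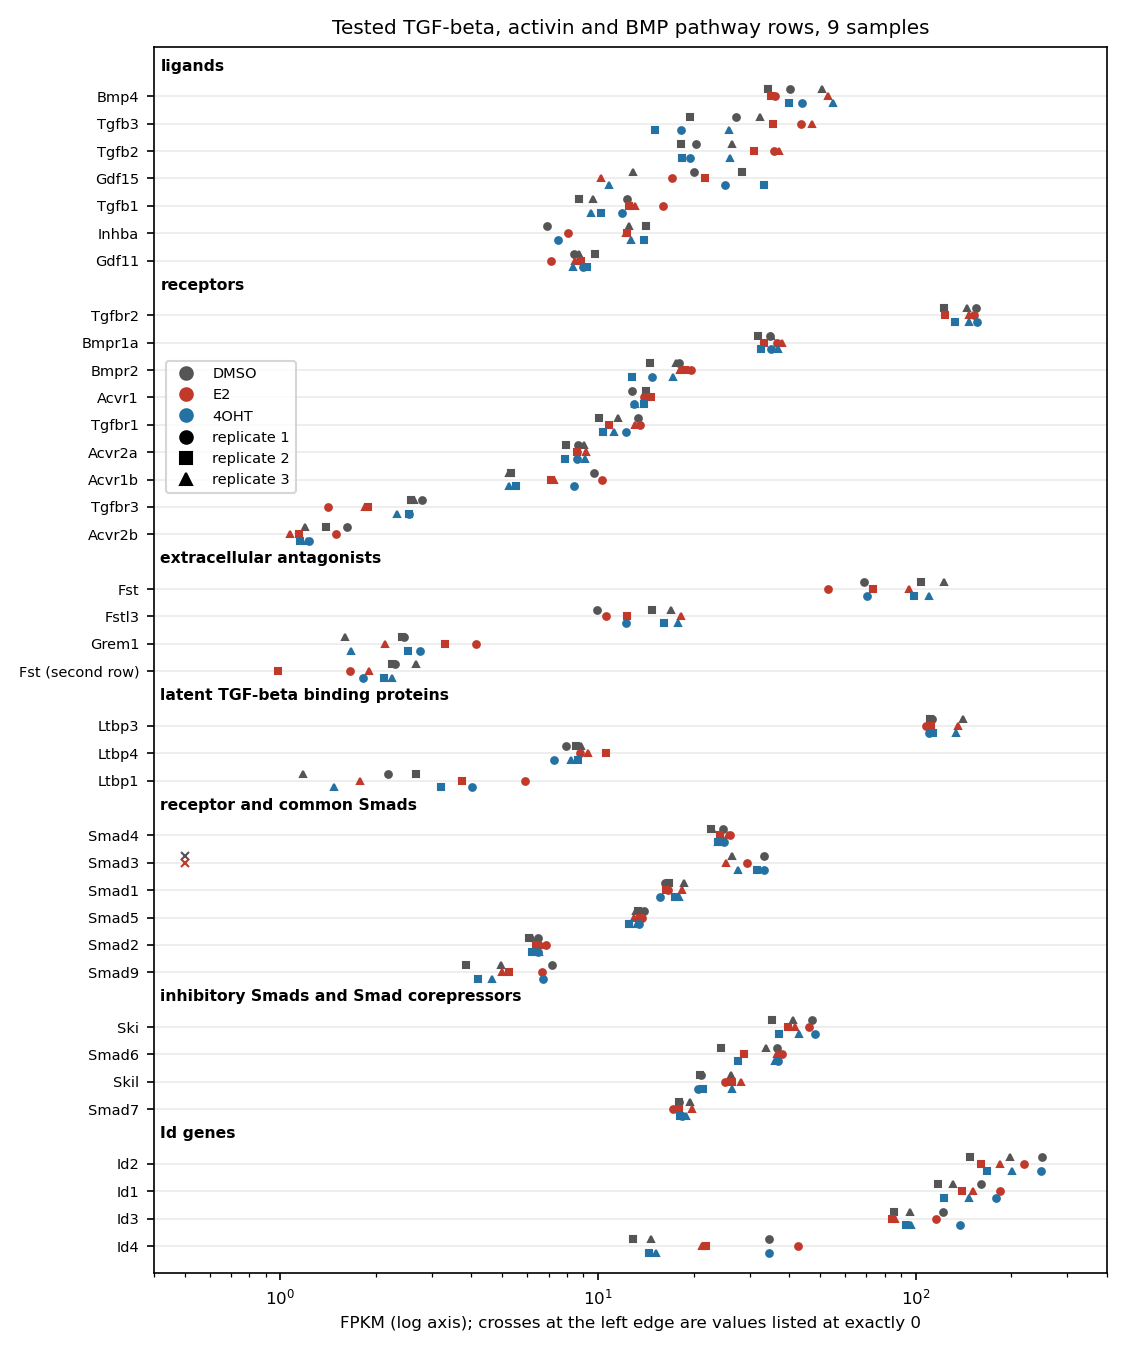
FPKM on a log axis (x) of the 37 tested rows of the pathway (y), grouped by role, with 1 point for each of the 9 samples, colored by treatment and shaped by replicate number. Id2, Tgfbr2, Id1, Ltbp3 and Id3 are the highest rows, the E2 points of Tgfb1, Tgfb2 and Tgfb3 lie to the right of all DMSO and 4OHT points, and the 2 crosses mark the samples in which Smad3 is listed at 0.

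The first question was whether E2 altered the pathway relative to DMSO. None of the 37 rows passed the threshold in the limma fit without a replicate block, in which 58 of 11339 tested rows (0.512%) were called. At an unadjusted p under 0.05, 5 of the 37 and 1237 of the 11339 rows passed, and the smallest Benjamini-Hochberg adjusted p was 0.0870, for Tgfbr3. The labels give each treatment the replicate numbers 1, 2 and 3, and samples with the same number deviated together, so values from a second fit, blocked on replicate number, are given beside the first. In that limma fit, 12 of 37 rows were called (32.4%) against 1702 of 11339 (15.0%), Pgr and Greb1 among the latter (limma adjusted p 0.00253 and 0.00525). In it 9 rows rose (24.3%, background 10.4%): Tgfb1, Tgfb2, Tgfb3, Acvr1b, Grem1, Ltbp1, Skil, Id1 and Id4. Another 3 rows fell (8.11%, background 4.63%): Tgfbr3 and both rows of Fst. With the block and without replicate 1, 2 or 3, 6, 1 and 2 of the 37 rows were called. Those fits hold fewer samples, and their counts over all tested rows are not given here. The drop therefore cannot be laid to any single replicate or read as particular to these genes. In all of these fits the 12 rows kept the direction of their change. That outcome was fixed in advance, since each of the 12 rows moved 1 way in every replicate pair. The median log2 fold change of the 37 rows was 0.05, against -0.0027 over all tested rows, and the median size of the change was 0.10 against 0.085. Without regard to any fit, the 3 E2 values lay clear of the 3 DMSO values in 6 rows (16.2%), close to the 15.2% over all tested rows.

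The TGF-β ligand genes were all higher with E2. Tgfb2 (chr1:186622792-186705989, GRCm38) measured 20.4, 18.3 and 26.4 FPKM in DMSO replicates 1, 2 and 3, 35.9, 30.9 and 37.1 with E2 and 19.5, 18.4 and 26.1 with 4OHT. Every E2 sample was above every DMSO and every 4OHT sample, and the DMSO and 4OHT ranges overlapped. The mean rose 1.60-fold, from 21.7 ± 4.23 to 34.6 ± 3.30 FPKM (SD, n = 3), a log2 change of 0.66 with a limma adjusted p of 0.00397 with the block (SE 0.0715) and 0.210 without it (SE 0.17).

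Tgfb3 (chr12:86056745-86079041) followed the same order with a wider range. Its values were 27.2, 19.5 and 32.2 FPKM with DMSO, 43.7, 35.7 and 47.2 with E2 and 18.3, 15.1 and 25.9 with 4OHT. The E2 samples were clear of both other groups, and in each replicate number the 4OHT sample was the lowest of the 3 treatments. E2 against DMSO gave a log2 change of 0.68 with a limma adjusted p of 0.00519 with the block (SE 0.0809) and 0.346 without it (SE 0.23).

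Tgfb1 (chr7:25687002-25705077), the most widely studied of these ligand genes, lay lower, at 12.4, 8.72 and 9.67 FPKM with DMSO, 15.98, 12.5 and 13.04 with E2 and 11.9, 10.2 and 9.53 with 4OHT. The lowest E2 value was just above the highest DMSO value. The log2 change with E2 was 0.41, with a limma adjusted p of 0.00722 with the block (SE 0.0537) and 0.357 without it (SE 0.14). Summed over Tgfb1, Tgfb2 and Tgfb3, the E2 sample held 1.59, 1.70 and 1.42 times the FPKM of the DMSO sample in replicates 1, 2 and 3, and the 4OHT sample 0.829, 0.942 and 0.900 times. The rise of Tgfb2 and Tgfb3 was called with the block also without replicate 1 and without replicate 3 but not without replicate 2, where Tgfb1 was the only 1 of the 12 rows still called.

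Among the other ligand genes tested, none was called. Bmp4, the highest ligand gene, measured 40.3, 34.3 and 50.6 FPKM with DMSO, 36.2, 34.99 and 52.9 with E2 and 43.9, 39.9 and 55.1 with 4OHT. Replicate 3 was the highest sample under each treatment and the groups overlapped, with an E2 log2 change of -0.02 (95% interval -0.14 to 0.10 with the block). Inhba, which encodes the subunit of activin A, was lowest in replicate 1 under each treatment, at 6.94, 14.2 and 12.5 FPKM with DMSO and 8.04, 12.3 and 12.2 with E2. Its groups overlapped (log2 -0.01, 95% interval -0.18 to 0.16). Gdf15, a stress-responsive member of the superfamily, ranged over 10.3 to 33.3 FPKM, was lowest in replicate 3 under each treatment, and was lower with E2 in all 3 pairs without passing (log2 -0.30, limma adjusted p 0.130 with the block and 0.828 without it). Gdf11 ranged over 7.13 to 9.82 FPKM.

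**Figure D2:**
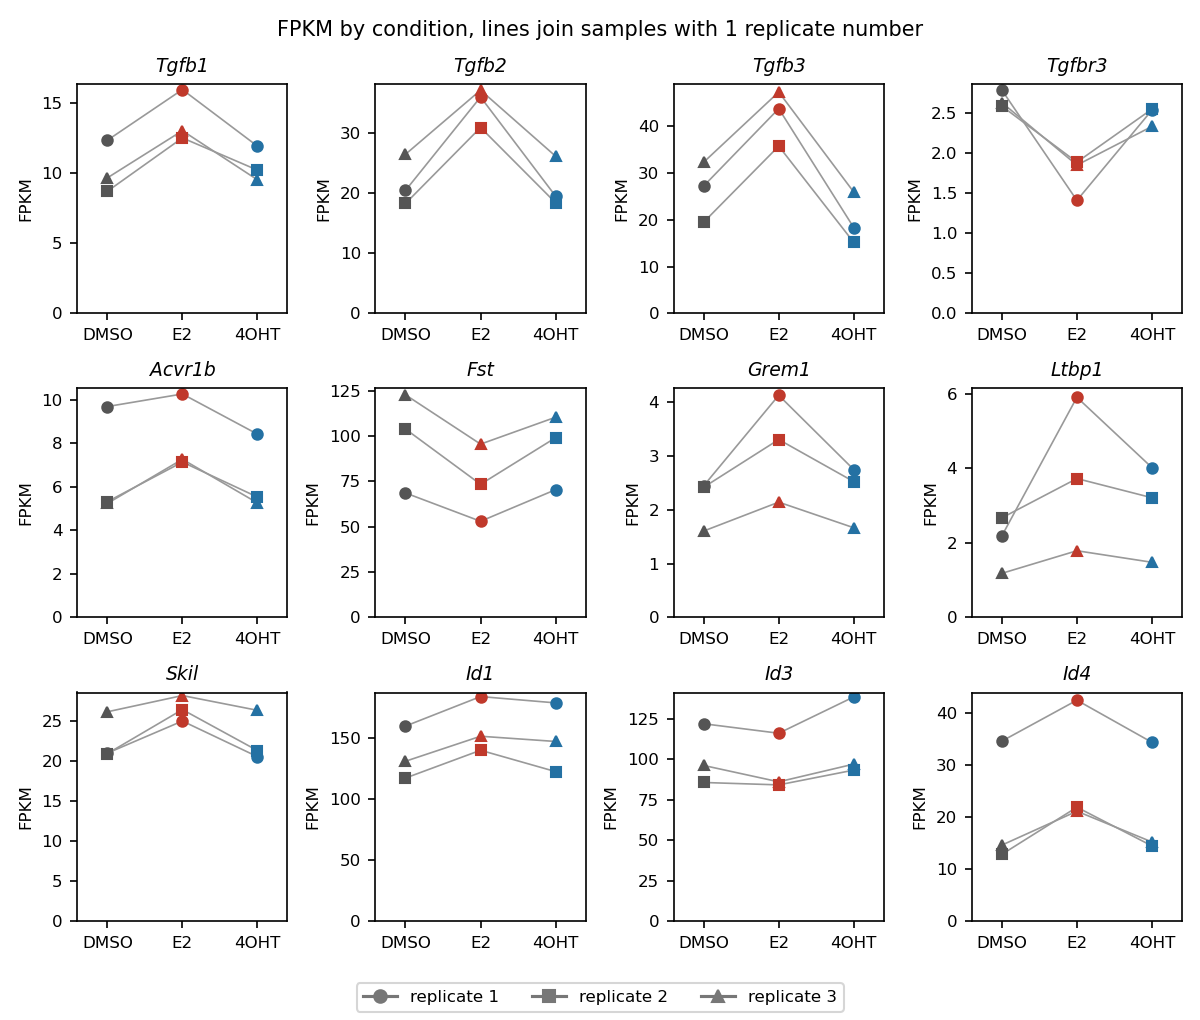
FPKM (y, from 0) by treatment (x) for 12 genes, with 1 point a sample, the marker showing the replicate number and a line joining samples that share it. The lines peak at E2 in all 3 replicates for Tgfb1, Tgfb2, Tgfb3, Grem1, Ltbp1, Acvr1b, Skil, Id1 and Id4 and dip at E2 for Tgfbr3, Fst and Id3, while replicate 1 stands apart in level for Acvr1b, Fst, Id3 and Id4.

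Promoter sequence is shown for 4 of the genes that rose with E2 in the blocked fit, because estrogen receptor can bind DNA near the start of its targets. RefSeq promoter windows (GRCm38.p6, the 250 bases before the start) were matched for 34 of the 47 genes, in 41 windows; none was matched for Tgfb3, Tgfbr3, Fst, Id1 and Skil. Written 5′ to 3′ on the strand of the gene, with capitals marking each single arm of the estrogen response element (GGTCA, or TGACC on the other strand), the windows are Tgfb1 at chr7:25686752-25687001 on the plus strand, Tgfb2 at chr1:186705990-186706239 on the minus strand, Grem1 at chr2:113758649-113758898 on the minus strand and Id4 at chr13:48260866-48261115 on the plus strand.
Tgfb1: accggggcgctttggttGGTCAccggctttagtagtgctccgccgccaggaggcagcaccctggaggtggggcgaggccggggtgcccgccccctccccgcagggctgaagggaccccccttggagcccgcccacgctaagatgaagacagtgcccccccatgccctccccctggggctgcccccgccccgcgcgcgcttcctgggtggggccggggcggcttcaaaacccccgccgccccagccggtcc
Tgfb2: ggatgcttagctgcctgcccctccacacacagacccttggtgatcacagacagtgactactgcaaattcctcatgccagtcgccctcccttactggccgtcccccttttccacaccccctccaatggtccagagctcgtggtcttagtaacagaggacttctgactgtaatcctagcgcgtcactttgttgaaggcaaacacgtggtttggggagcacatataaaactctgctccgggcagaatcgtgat
Grem1: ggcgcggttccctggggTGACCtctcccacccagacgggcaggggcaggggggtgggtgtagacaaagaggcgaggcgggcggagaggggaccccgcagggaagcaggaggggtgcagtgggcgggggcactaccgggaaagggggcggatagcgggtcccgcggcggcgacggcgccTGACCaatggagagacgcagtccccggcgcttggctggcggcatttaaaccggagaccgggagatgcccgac
Id4: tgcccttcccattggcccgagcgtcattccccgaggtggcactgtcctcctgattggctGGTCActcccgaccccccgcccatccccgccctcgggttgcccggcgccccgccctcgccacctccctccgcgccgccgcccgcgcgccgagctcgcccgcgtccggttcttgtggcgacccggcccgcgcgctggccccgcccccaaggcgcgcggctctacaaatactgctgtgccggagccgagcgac
The Tgfb1 arm lies at -233 to -229 from the start, that of Id4 at -191 to -187, and those of Grem1 at -233 to -229 and -72 to -68; the Tgfb2 window holds none. Of the other genes that rose, Acvr1b has 1 window and Ltbp1 has 2, not shown, and these hold none either, so 3 of the 6 genes with a window hold an arm.
A single arm was present in 13 of the 41 windows (31.7%), near the 35.2% of all 32851 windows. The full palindromic element (GGTCANNNTGACC) was in 0 of the 41 and in 0.0639% of all windows. Searched on both strands as well, the AP-1 site TGACTCA was in 0 (4.46% of all windows), the cyclic AMP response element TGACGTCA in 1, that of Ltbp1 (1.55%), and the paired Smad box GTCTAGAC in 0 (0.167%). The GC box GGGCGG was in 30 windows (73.2%, against 32.7% of all) and the GC-rich motif GGCGCC in 12 (29.3%, against 9.59%). All windows were not matched to the 41 for base composition, and some windows of 1 gene overlap, as for Ltbp4 and Smad5. These shares therefore cannot be read as a trait of the pathway. Such matches describe these letters in these windows and say nothing about binding.

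Of the 9 tested receptor genes, 1 rose and 1 fell with E2 in the blocked fit, where 10.4% of all rows rose and 4.63% fell. Counts this small cannot be told from those shares. Tgfbr2, the type II TGF-β receptor gene and the highest receptor gene, measured 155, 123 and 146 FPKM with DMSO, 153, 123 and 147 with E2 and 156, 133 and 147 with 4OHT. The groups overlapped almost fully and replicate 2 was lowest under each treatment; the log2 change with E2 was 0.00 with a 95% interval of -0.08 to 0.08 with the block. The type I receptor gene Tgfbr1 ranged over 10.1 to 13.6 FPKM, Bmpr1a over 31.8 to 37.9, Bmpr2 over 12.8 to 19.6, Acvr1 over 12.8 to 14.7, Acvr2a over 7.90 to 9.19 and Acvr2b over 1.08 to 1.62, and none of these was called against DMSO. Bmpr2, the type II BMP receptor gene, measured 17.97, 14.6 and 17.6 FPKM with DMSO and 19.6, 18.7 and 18.1 with E2, so that its groups did not overlap although the change did not pass (log2 0.17, limma adjusted p 0.234 with the block and 0.641 without it).

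Tgfbr3 (chr5:107106570-107289629), encoding betaglycan, the co-receptor that presents TGF-β2 and also binds inhibin, was the receptor gene that fell. It measured 2.79, 2.59 and 2.63 FPKM with DMSO, 1.41, 1.89 and 1.85 with E2 and 2.54, 2.55 and 2.33 with 4OHT. All E2 values were below all others, replicate 1 the lowest. The mean with E2 was 0.643 times that with DMSO, with a log2 change of -0.44 and a limma adjusted p of 0.0182 with the block (SE 0.0790) and 0.0870 without it (SE 0.0818). Tgfbr3 is among the genes the study listed from these samples, so its direction is not independent evidence. Acvr1b, the type I activin receptor gene, measured 9.69, 5.32 and 5.24 FPKM with DMSO, 10.3, 7.14 and 7.27 with E2 and 8.42, 5.53 and 5.26 with 4OHT. Replicate 1 was highest under each treatment and the groups overlapped, but E2 was higher in 3 of 3 pairs, with a log2 change of 0.28 (limma adjusted p 0.0424 with the block, 0.711 without it).

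The antagonist genes moved in both directions. Fst (chr13:114452290-114458951), encoding the activin-binding protein follistatin and the highest antagonist gene, measured 68.6, 104 and 123 FPKM with DMSO, 52.97, 73.3 and 95.5 with E2 and 70.4, 99.02 and 110.3 with 4OHT. Replicate 1 was lowest and replicate 3 highest under each treatment, so that the groups overlapped, while E2 was lower than DMSO in 3 of 3 pairs. The log2 change was -0.41, with a limma adjusted p of 0.00635 with the block (SE 0.0516) and 0.644 without it (SE 0.28). The second row listed for Fst lay far lower, at 2.30, 2.25 and 2.68 FPKM with DMSO, 1.66, 0.985 and 1.90 with E2 and 1.83, 2.12 and 2.25 with 4OHT. Its E2 values were all below the DMSO values, with a log2 change of -0.45 (limma adjusted p 0.0449 with the block, 0.308 without it), and the rows carry only the symbol, so how reads were divided between them is unknown.

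Grem1, encoding the BMP antagonist gremlin, measured 2.45, 2.42 and 1.60 FPKM with DMSO, 4.13, 3.31 and 2.14 with E2 and 2.75, 2.52 and 1.67 with 4OHT. Replicate 3 was lowest under each treatment and the groups overlapped, while E2 was the highest treatment in each replicate. The log2 change was 0.39, with a limma adjusted p of 0.0142 with the block (SE 0.0650) and 0.557 without it (SE 0.21). Fstl3, a follistatin relative, ranged over 9.96 to 18.3 FPKM and was not called (log2 -0.02, 95% interval -0.22 to 0.18 with the block).

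Of the latent TGF-β binding protein genes, Ltbp3 was the highest, at 113, 111 and 141 FPKM with DMSO, 107, 112 and 136 with E2 and 110.2, 113 and 134 with 4OHT. The groups overlapped, replicate 3 being highest in each (log2 -0.04 with E2, 95% interval -0.11 to 0.04 with the block). Ltbp1 measured 2.19, 2.67 and 1.18 FPKM with DMSO, 5.91, 3.73 and 1.79 with E2 and 4.02, 3.21 and 1.48 with 4OHT. Its E2 sample was the highest in each replicate and replicate 3 the lowest under each treatment, so the groups overlapped. The log2 change was 0.61 (limma adjusted p 0.0444 with the block, 0.614 without it), and 0.36 with the block and without replicate 1. Ltbp4 measured 7.95, 8.53 and 8.86 FPKM with DMSO, 8.75, 10.6 and 9.31 with E2 and 7.26, 8.65 and 8.24 with 4OHT. E2 was above DMSO in 3 of 3 pairs, with overlapping groups, but not called (log2 0.16, limma adjusted p 0.0770 with the block).

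None of the receptor and common Smad genes was called. Smad4, the common partner, measured 24.7, 22.7 and 22.8 FPKM with DMSO, 26.02, 24.2 and 25.7 with E2 and 24.9, 23.8 and 23.8 with 4OHT. It was higher with E2 than with DMSO in 3 of 3 pairs with overlapping groups (log2 0.11, limma adjusted p 0.0639 with the block and 0.507 without it). Smad3, the TGF-β and activin mediator, was listed at 0 in replicate 2 of DMSO and of E2. Its other values were 33.3 and 26.4 FPKM with DMSO, 29.4 and 25.3 with E2, and 33.4, 31.6 and 27.6 with 4OHT. With the 2 zeros taken as missing and the block, which drops those 2 samples for this row, the log2 change with E2 was -0.12 (95% interval -0.24 to 0.0026) and the limma adjusted p was 0.153. Smad1, Smad5 and Smad9, the BMP mediators, ranged over 15.7 to 18.6, 12.5 to 13.9 and 3.86 to 7.19 FPKM, and Smad2 over 6.07 to 6.86 FPKM. For Smad1 and Smad5 the 95% intervals of the log2 change with E2 in the blocked fit were -0.10 to 0.09 and -0.09 to 0.08.

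Of the inhibitory Smads and corepressors, Skil, encoding the corepressor SnoN, measured 21.04, 20.97 and 26.2 FPKM with DMSO, 25.1, 26.5 and 28.2 with E2 and 20.6, 21.4 and 26.4 with 4OHT. Replicate 3 was the highest under each treatment and the groups overlapped, with E2 the highest treatment in each replicate (log2 0.22, limma adjusted p 0.0331 with the block and 0.547 without it). Its relative Ski, the highest gene of the group, measured 47.3, 35.4 and 40.97 FPKM with DMSO, 46.2, 39.7 and 41.7 with E2 and 48.2, 37.2 and 42.95 with 4OHT, with overlapping groups (log2 0.05, 95% interval -0.05 to 0.15 with the block). Smad7, which blocks the TGF-β receptor, ranged over 17.3 to 19.7 FPKM (95% interval -0.10 to 0.07 with the block), and Smad6, which acts on the BMP branch, over 24.4 to 37.9 FPKM (limma adjusted p 0.0818 with the block). Both are themselves known to be induced by the pathway.

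The Id genes, inhibitors of basic helix-loop-helix transcription factors, did not move as 1 group. Id1 measured 160.0, 117 and 131 FPKM with DMSO, 184, 140.2 and 152 with E2 and 179, 123 and 147 with 4OHT, and Id4 34.7, 12.9 and 14.7 with DMSO, 42.5, 21.95 and 21.2 with E2 and 34.4, 14.5 and 15.3 with 4OHT. Replicate 1 was the highest sample under each treatment for both genes, and for Id4 even the DMSO value of replicate 1 exceeded the E2 values of replicates 2 and 3, whereas E2 was above DMSO in 3 of 3 pairs for both. The log2 change was 0.22 for Id1, with a limma adjusted p of 0.0143 with the block and 0.673 without it. For Id4 it was 0.50, with 0.0114 and 0.723, and 0.61 with the block and without replicate 1.

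Id2, the most abundant gene of the pathway, measured 249.7, 148 and 198 FPKM with DMSO, 219.8, 161 and 185 with E2 and 248, 167 and 200.2 with 4OHT. Id3 measured 122, 85.6 and 96.1 with DMSO, 116, 84.1 and 86.00 with E2 and 138, 93.2 and 96.9 with 4OHT. In both genes the groups overlapped with replicate 1 highest, and neither was called against DMSO (95% intervals of the log2 change with the block -0.19 to 0.09 for Id2 and -0.18 to 0.01 for Id3). Summed over the 4 Id genes, the E2 sample held 0.993, 1.12 and 1.01 times the FPKM of the DMSO sample in replicates 1, 2 and 3.

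The second question was what 4OHT did alone. No row of the pathway and no row of the 11339 was called against DMSO, with or without the block (0% in both limma fits). The study, with its own test on reads, did list a small number of genes as changed by 4OHT in these samples. The absence of calls therefore holds for these limma fits only. At an unadjusted p under 0.05, 313 of all rows and 0 of the 37 passed without the block, and 1480 and 4 with it: Tgfb3, Id1, Bmp4 and Id3. Tgfb3 was lower with 4OHT in 3 of 3 pairs (log2 -0.40, 95% interval -0.60 to -0.20, limma adjusted p 0.344 with the block and 0.9997 without it). Bmp4 was higher in 3 of 3 pairs (log2 0.15, adjusted p 0.376 in the blocked limma fit), as was Id1 (log2 0.13, also 0.376). The 4OHT values lay clear of the DMSO values in 2 rows, Tgfbr3 and the second row of Fst, both lower (5.41%, against 7.94% of all rows). The median log2 change of the 37 rows was 0.0019 against 0.025 over all rows.

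**Figure D3:**
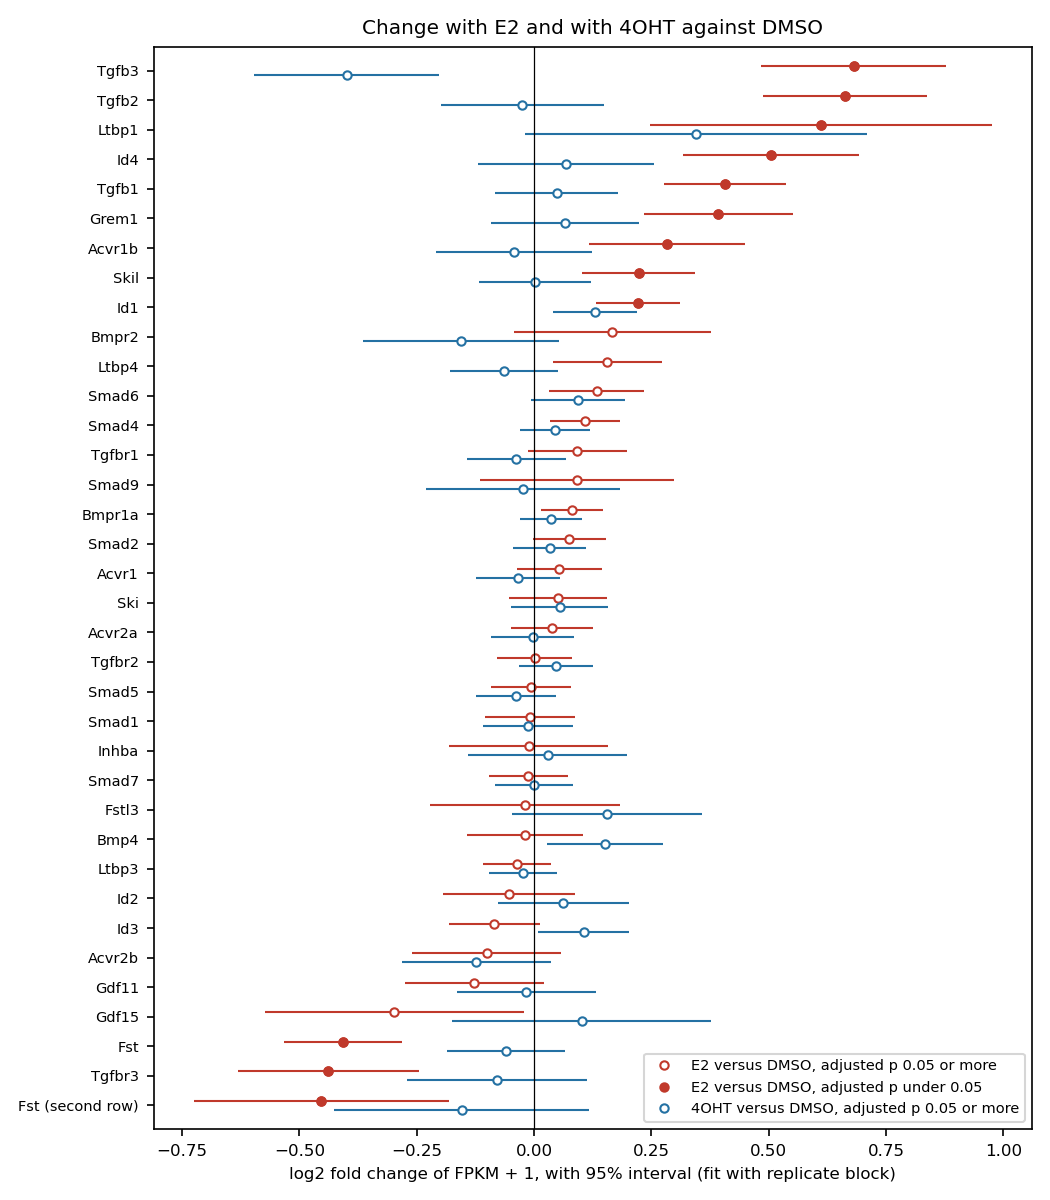
Log2 fold change of FPKM + 1 (x) with 95% intervals from the fit with the replicate block for 36 tested rows (y), E2 against DMSO in red and 4OHT against DMSO in blue, filled where the adjusted p was under 0.05; Smad3 is left out because of its zeros. Of the filled red points 9 lie to the right of 0 and 3 to the left, no blue point is filled, and Tgfb3 has the red and the blue interval on opposite sides of 0. Both comparisons use the same DMSO samples.

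The third comparison, E2 against 4OHT, is the test of the difference between the responses to the 2 compounds, with doses that were not matched. It shares its samples with the comparisons above. Without the block, 18 of 11339 rows (0.159%) and 0 of the 37 were called, 6 of the 37 and 1307 of all rows having an unadjusted p under 0.05 and Tgfb3 the smallest adjusted p by limma, 0.184. With the block, 11 of 37 rows were called (29.7%, background 16.2%): 8 higher with E2 (21.6%, background 8.63%) and 3 lower (8.11%, background 7.60%). Without replicate 1, 2 or 3 and with the block, 1, 2 and 3 of the 37 rows were called. These fits again hold fewer samples, and their counts over all tested rows are not given here. The groups did not overlap in 7 rows (18.9%), close to the 18.3% of all rows, so this count is no trait of the pathway. Of these rows, Tgfb1, Tgfb2, Tgfb3, Bmpr2, Acvr1 and Ltbp4 were higher with E2, and Tgfbr3 lower.

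Among rows without a 0, Tgfb3 differed most between the compounds. Its mean was 42.2 ± 5.91 FPKM with E2 and 19.8 ± 5.52 with 4OHT (SD, n = 3), a ratio of 2.13 and a log2 difference of 1.08 (limma adjusted p 0.00231 with the block). It was called with the block also when replicate 1, 2 or 3 was left out. Tgfb2 differed by 0.69 and Tgfb1 by 0.36 on the log2 scale, with limma adjusted p of 0.00505 and 0.0130 with the block. Id4 (0.44), Grem1 (0.33), Acvr1b (0.33), Skil (0.22) and Ltbp4 (0.22) were higher with E2 than with 4OHT in 3 of 3 pairs and called with the block, with limma adjusted p between 0.0194 and 0.0350. Fst (-0.35), Id3 (-0.19) and Tgfbr3 (-0.36) were lower with E2, with adjusted p of 0.0130, 0.0306 and 0.0341 in the same limma fit. For Id1 and Ltbp1, called against DMSO, the difference between E2 and 4OHT did not pass, with 95% intervals of 0.00 to 0.18 and -0.10 to 0.63, and for Tgfbr2 the interval was -0.13 to 0.03.

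Replicate means differed more than treatment means in most rows of the pathway. In 36 tested rows without a 0, the means of the 3 replicate numbers spanned a median of 0.32 on the log2 scale and the means of the 3 treatments 0.15. The replicate span was the wider in 27 rows and the treatment span in 9. Replicate 1 was the highest sample under all 3 treatments in 15 rows and the lowest in 5. Esr1 and Pgr were also highest in replicate 1 under each treatment. Esr1, the gene of estrogen receptor α, measured 12.4, 5.98 and 5.995 FPKM with DMSO and 16.3, 9.32 and 8.31 with E2, and its target Pgr, the progesterone receptor gene, 9.58, 1.36 and 1.16 and 38.1, 21.1 and 15.9. Their part in the results of the pathway was not tested.

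**Figure D4:**
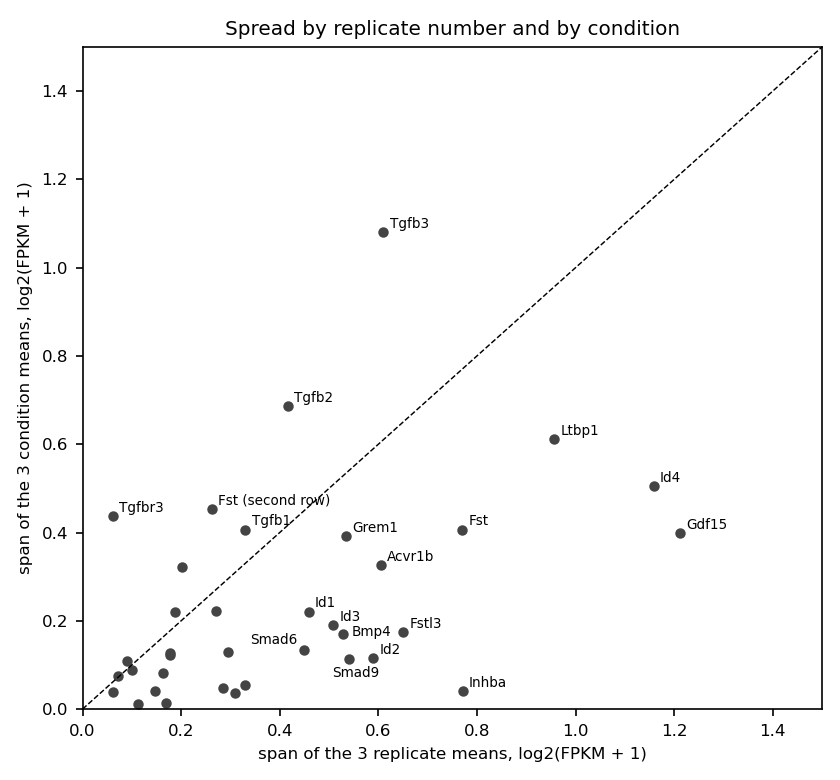
For each of 36 tested rows, the span of the 3 replicate means (x) against the span of the 3 treatment means (y), both in log2(FPKM + 1), with the line of equality dashed. Tgfb3, Tgfb2, Tgfbr3, Tgfb1 and the second row of Fst lie above the line, whereas Gdf15, Id4, Ltbp1, Inhba and Fst lie well below it; 27 rows are below and 9 above.

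Other genes of the pathway and its responders were read from lists of 97 genes. Of these, 62 rows were tested, and none was called without the block in any comparison. With the block 23 were called for E2 against DMSO (37.1%, against 15.0% of all rows), 18 higher (29.0%, against 10.4%) and 5 lower (8.06%, against 4.63%). The lists, too, were chosen with earlier results of these data known, so these shares are not independent evidence. Of 20 further ligand genes only Bmp6 and Gdf6 passed the filter, and both rose. Bmp6 measured 22.3, 18.9 and 20.04 FPKM with DMSO, 37.1, 29.4 and 30.3 with E2 and 25.1, 21.8 and 22.5 with 4OHT, the E2 samples clear of all others (log2 0.63, limma adjusted p 0.000800 with the block and 0.0513 without it). Gdf6, another BMP-type ligand gene, measured 9.07, 2.04 and 1.15 with DMSO, 23.6, 9.97 and 6.36 with E2 and 6.997, 2.18 and 1.19 with 4OHT, with replicate 1 the highest throughout and the groups overlapping (log2 1.64, limma adjusted p 0.00103 with the block and 0.468 without it).

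Of 13 tested rows of extracellular regulators 5 rose with the block and none fell, where 10.4% of all rows rose and 4.63% fell. Dcn, encoding decorin, a proteoglycan that binds TGF-β, measured 5.87, 0.652 and 0.416 FPKM with DMSO and 21.01, 11.9 and 6.05 with E2 (log2 2.32, limma adjusted p 0.00321 with the block); it too was listed by the study from these samples. The DMSO sample of replicate 1 stood far above the other DMSO samples. Twsg1 (log2 0.31), Nbl1 (0.30) and Itgav (0.25) rose by less. Rgmb, a BMP co-receptor gene, rose as 1 of 2 tested further receptor genes (log2 0.23). Of 20 intracellular regulators the corepressor genes Tgif1 (log2 -0.24) and Tgif2 (-0.21) fell and none rose.

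Of 22 tested genes known to respond to TGF-β, 9 rose and 3 fell with the block, and of 3 BMP responders 1 rose, where 10.4% of all rows rose and 4.63% fell. Ctgf, a matricellular protein gene, measured 434, 939 and 1136 FPKM with DMSO, 733, 1299 and 1583 with E2 and 571, 1134 and 1258 with 4OHT, lowest in replicate 1 under each treatment (log2 0.57 with E2, limma adjusted p 0.00463 with the block and 0.685 without it). Tgfbi, named for its induction by TGF-β, measured 9.79, 1.49 and 2.59 with DMSO and 14.5, 6.06 and 7.42 with E2, highest in replicate 1 (log2 1.09, limma adjusted p 0.0126 with the block and 0.572 without it). Snai2 (log2 0.54) and the smooth muscle gene Tagln (0.37) rose as well, while Cnn1 (-0.43), also a smooth muscle gene, fell. Msx2, the BMP responder that rose, measured 15.5, 11.02 and 9.69 with DMSO and 24.4, 17.4 and 15.5 with E2 (log2 0.62, limma adjusted p 0.00255 with the block). For E2 against 4OHT, 20 of the 62 rows were called with the block (32.3%, against 16.2% of all rows), 10 in each direction (16.1%, against 8.63% higher and 7.60% lower), and for 4OHT against DMSO none.

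**Figure D5:**
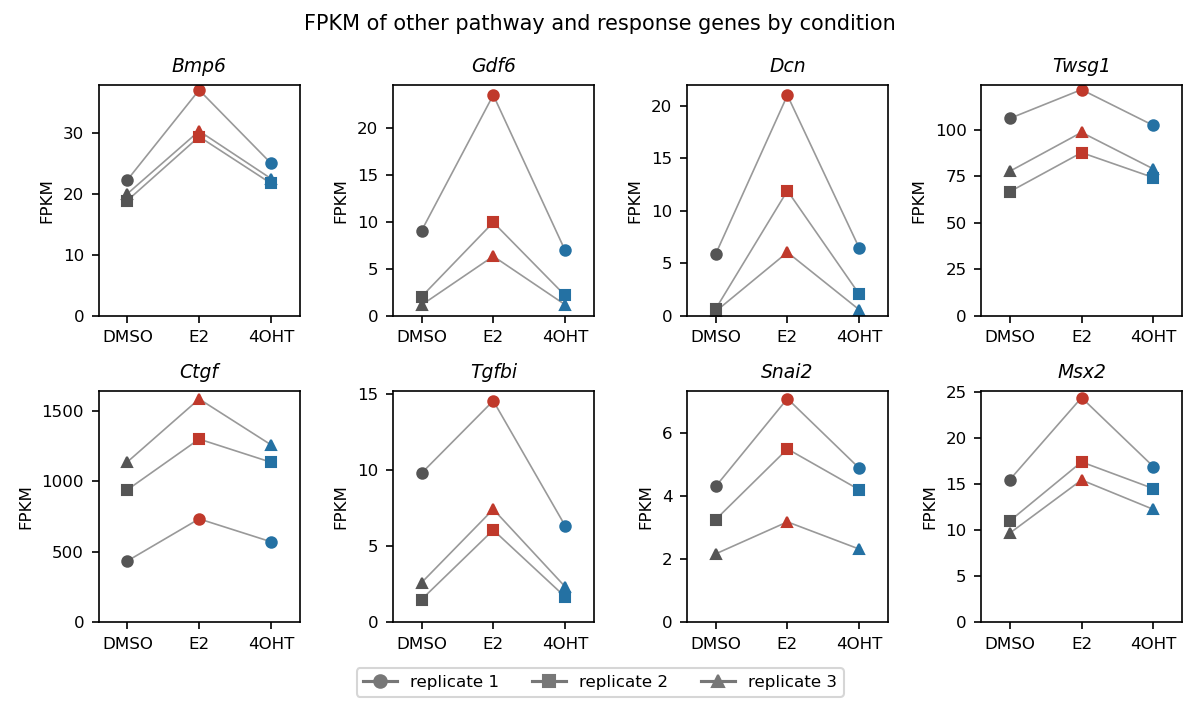
FPKM (y, from 0) by treatment (x) for 8 genes outside the 47, with 1 point a sample and a line joining samples that share a replicate number. All 8 genes peak at E2 in all 3 replicates, and replicate 1 lies apart from the others for Gdf6, Dcn, Twsg1, Ctgf and Tgfbi.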

How the data were processed

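RNA-seq was performed on 9 samples of FVB MOE cells. Per the labels and the study's methods, the authors aligned reads to mm10 with TopHat2 2.0.8b and derived the deposited FPKM values with Cuffdiff 2.1.1, 1 table per sample; read counts were not used here. FPKM was transformed as log2(FPKM + 1) without further scaling, rows under 1 FPKM in more than 6 samples were removed, and limma 3.58.1 in R 4.3.3 (trended empirical Bayes, 1 coefficient per treatment, all 9 samples) was fitted across 11339 rows with Benjamini-Hochberg adjustment. The study's own test works on reads and was not rerun. The limma fit was preferred to the exact permutation test of 3 samples against 3, which cannot give a two-sided p under 0.1.

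The replicate numbers come from the labels. Deviations of same-numbered samples from their group means correlated at 0.523 to 0.828 over the tested rows without an exact 0 (0.0527 to 0.293 over all tested rows), so the numbers were taken to pair the samples and the replicate block was fitted as well. The members and lists were chosen with earlier results of these data known. Values in every sample are given for members called in either fit of any comparison, for the highest member of each role, and for members with an isolated 0; of other genes, up to 5 per list with the largest change among those called with the block in all 3 pairs. Exact zeros were kept as deposited. The scripts were tested on simulated data. Gene positions are from GENCODE on GRCm38, promoter sequence from RefSeq (GRCm38.p6). Alternatives were another pseudocount, filter, scaling, sample set, treatment of zeros, threshold and the omission of samples. Some genes that this rule selects are not reported here.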

Additional observations from a re-analysis of the deposited data

How the results depend on the processing

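Of the 37 rows of the pathway, 0 were called without the replicate block in each comparison, also with a pseudocount of 0.1, no filter, either scaling, zeros as missing, only the 6 samples compared, a threshold of 0.01, or any 1 sample left out; the exception was Id4 for E2 against DMSO, the 1 row called when all 3 samples of replicate 1 were left out. With the replicate block, 12 rows were called for E2 against DMSO and 11 for E2 against 4OHT. With the block and zeros as missing the counts were 12 and 14. The following were chosen after seeing the data: the block within the 6 samples compared gave 6 and 5, the block with a pseudocount of 0.1 gave 11 and 11, with upper-quartile scaling 10 and 11, and without replicate 1, 2 or 3 it gave 6, 1 and 2 for E2 against DMSO and 1, 2 and 3 for E2 against 4OHT. For 4OHT against DMSO 0 rows were called under every alternative run. Apart from the block itself, counts over all tested rows under these alternatives are not given here. The counts above therefore cannot be read as robustness of the pathway. For E2 against DMSO, Tgfb2 and Tgfb3 were called in 7 of the 8 blocked fits. Fst and Tgfb1 were called in 6, and Id1, Id4 and Ltbp1 in 5. Acvr1b, Grem1 and Tgfbr3 were called in 4, Skil and the second row of Fst in 3. Over all rows the block raised the calls from 58 to 1702 for E2 against DMSO and from 18 to 1840 for E2 against 4OHT; the cause was not tested beyond the smaller standard error, whose median over the 37 rows was 0.14 without and 0.052 with the block.

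No row called with the block changed direction, in the comparison where it was called, under the alternatives run. For fits without a whole replicate this was fixed in advance, since each such row moved 1 way in every replicate pair. Direction was checked only for rows called in any comparison, the highest gene of each role and Smad3, not for the other tested rows. Among the rows checked, the log2 change with E2 against DMSO changed sign only for rows not called in that comparison: with 1 sample left out it ranged from -0.21 to 0.13 for Bmp4, -0.25 to 0.13 for Id2, -0.23 to 0.056 for Id3, -0.14 to 0.072 for Ltbp3, -0.052 to 0.15 for Ski, -1.72 to 1.53 for Smad3, whose zeros decide its value, and -0.094 to 0.095 for Tgfbr2. Without replicate 1 it was 0.046 for Bmp4 and 0.012 for Id2, with or without the block. With the block it was -0.0046 for Ski without replicate 2 and -0.0074 for Tgfbr2 without replicate 3. Under upper-quartile scaling it was -0.024 for Tgfbr2, with or without the block, and under equal FPKM totals -0.023. The read depth is unknown from FPKM, so no counting error is given here for low rows such as Tgfbr3, Grem1, Ltbp1 and the second row of Fst.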
